A study of Rattus norvegicus with 22 samples.

Results

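The genes described here encode the E2 ubiquitin-conjugating enzymes, whose symbols begin Ube2, and the ubiquitin-specific proteases, whose symbols begin Usp. They were taken by symbol from the rat array, leaving out 2 symbols and those beginning Uspl, with the brightest probe where a gene had several. This gave 61 genes, 26 of the Ube2 family and 35 of the Usp family, among 27496 named genes and unnamed probes. The rule takes symbols, not function: Usp6nl, by name a relative of a protease, encodes a GTPase-activating protein and is counted with the Usp family for that reason alone. Male rats were given the alkylating agent cyclophosphamide (6 mg/kg) or saline by mouth through a tube, 6 days of each week over 4 weeks, and their germ cells were then parted by sedimentation. The 4 groups were round spermatids, the haploid cells after meiosis, from cyclophosphamide rats (n = 6) and saline rats (n = 6), and pachytene spermatocytes, cells in meiotic prophase, from cyclophosphamide rats (n = 5) and saline rats (n = 5). The strain and age of the rats are not given in the sources used here. Every group is an enriched fraction of a bulk preparation, so more cells of a type and more RNA per cell cannot be told apart.

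Ubiquitin is a small protein that is attached to other proteins in a chain of 3 kinds of enzymes. An E1 enzyme activates it, an E2 enzyme carries it, and an E3 ligase picks the protein that receives it, while the ubiquitin proteases take it off again. In the testis the system marks histones on the silenced sex chromosomes of spermatocytes and during their later exchange for protamines. It also breaks down proteins in spermatids. Male mice that lack the E2 enzyme Ube2b, the E2 enzyme Ube2j1 or the protease Usp2 have reduced fertility or are sterile.

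Levels below are log2 signals of a probe relative to the 75th percentile of its own array, so 0 is that percentile, and they are compared between arrays, not between probes. That percentile lay between 1069.5 and 2423.3 intensity units, 65.3% to 76.4% of probes were well above background on an array, with no spot saturated, and pairs of arrays within a group correlated at 0.981 to 0.9913. The labelled cell types carried their markers: all 11 pachytene markers measured were lower and all 13 round spermatid markers were higher in round spermatids than in pachytene spermatocytes of saline rats. Markers of other testis cells differed between the fractions too. Among those tested, 8 of 8 macrophage markers and 4 of 5 myoid markers were higher in round spermatids, while 6 of 6 Leydig markers and 6 of 10 Sertoli markers were higher in pachytene spermatocytes (1 Sertoli marker was lower there). The Leydig marker Lhcgr was not well above background on any array, nor were the macrophage marker Ptprc and the myoid marker Cnn1 on any pachytene array. The mean level of the 9 macrophage markers on the array was -1.02 to 0.33 in round spermatids and -3.05 to -2.54 in pachytene spermatocytes of saline rats, and the part of these cells in the values below was not tested. The arrays lay on 4 slides. Slides 1 and 2 each held all 4 groups with 3 round spermatid arrays and 1 pachytene array per treatment, and slides 3 and 4 held pachytene arrays alone.

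Between the cell types of saline rats, 48 of the 58 genes tested passed at a Benjamini-Hochberg adjusted p of 0.05 over all genes (limma), 25 higher and 23 lower in round spermatids. The same comparison called 75.4% of all genes tested, 38.5% higher and 36.9% lower, so a call by itself sets these genes apart little. In the Usp family 17 of 33 genes were higher and 12 lower, led upward by Usp51, Usp25, Usp11 and Usp12 and downward by Usp10 and Usp9x. In the Ube2 family 8 of 25 genes were higher and 11 lower, led upward by Ube2a and Ube2j1 and downward by Ube2e3. Differences of more than 2-fold numbered 9 higher and 8 lower in the Usp family, and 3 higher and 7 lower in the Ube2 family. These are 51.5% of the Usp genes and 40.0% of the Ube2 genes, beside 46.3% of all genes tested. The genes not tested were Ube2ql1, Usp13 and Usp29, which were well above background on 1, 1 and 0 of 22 arrays.

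**Figure D1:**
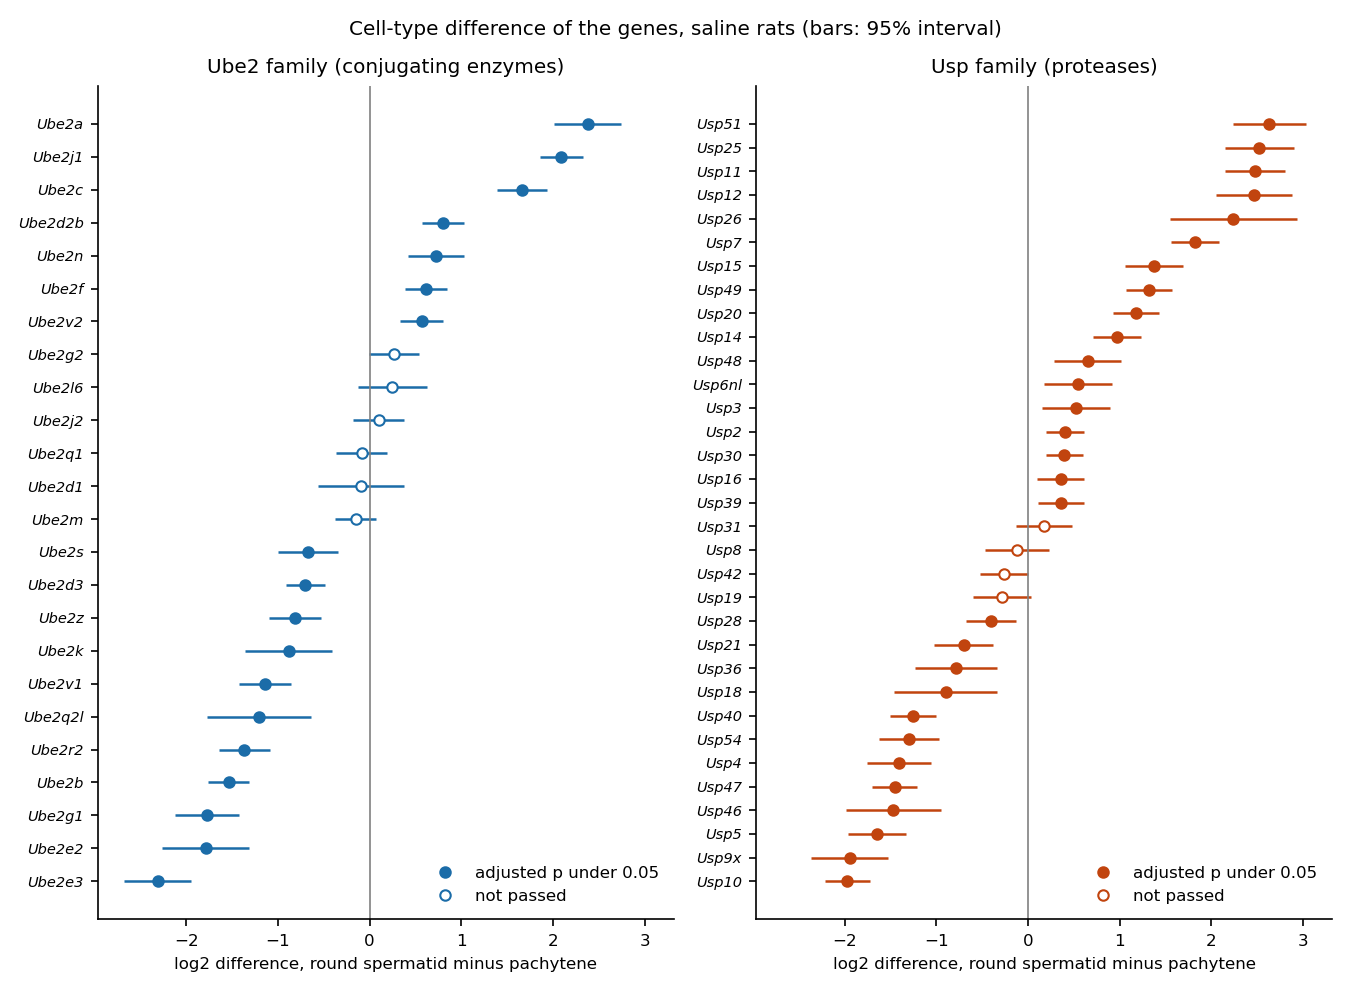
Each point is the log2 difference of 1 gene, in round spermatids over pachytene spermatocytes, both of saline rats, with its 95% interval, for 24 genes of the Ube2 family (left) and 33 of the Usp family (right). Filled points passed at an adjusted p of 0.05; the differences run from -2.31 (Ube2e3) to 2.63 (Usp51), and both families spread to both sides of 0. Ube2q2l, at background in round spermatids, is drawn at its fitted value.

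Compared as families, the Usp genes had a median log2 difference of 0.36 (quartiles -0.90 and 1.18) and the Ube2 genes one of -0.10 (quartiles -1.14 and 0.61), beside 0.01 (quartiles -0.80 and 1.04) over all genes tested. The shares called higher were 51.5% of the Usp genes and 32.0% of the Ube2 genes, and the shares called lower 36.4% and 44.0%. The 2 families overlap across most of their range, and no test of the difference between them was made, because the families were named with results of these data known. The Usp median was 0.07 after quantile normalization and 0.15 when all probes of a gene were averaged. The Ube2 median was -0.29 after quantile normalization. These medians therefore moved with the processing by more than 1.5 times, while the counts of calls did not move that far outside single slides.

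Ube2a and Ube2b, paralogs that differed in opposite directions, are relatives of the yeast enzyme RAD6 and attach single ubiquitins to histone H2B and to the DNA clamp PCNA. Ube2a lies on chromosome X (120979993 to 120990773, GRCr8) and Ube2b on chromosome 10 (36749365 to 36764335). Ube2a had a lowest, median and highest level of 3.22, 3.37 and 3.73 in round spermatids, against 0.94, 1.90, 0.89, 0.48 and 1.04 in pachytene spermatocytes of saline rats. Every round spermatid array thus stood above every pachytene array, and the gene was 5.2-fold higher (95% interval 4.04 to 6.70; adjusted p = 4.92e-11, limma). Ube2b had 0.86, 1.04 and 1.23 in round spermatids, against 2.58, 2.66, 2.63, 2.47 and 2.56 in pachytene spermatocytes. Here every round spermatid array stood below every pachytene array, and the gene was 2.91-fold lower (2.49 to 3.39; adjusted p = 2.13e-11). A second Ube2a probe was also higher, by 1.29 on the log2 scale. Probes of these 2 genes may pick up the other gene's RNA, since their coding sequences are alike, and this was not tested.

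For genes that moved in opposite directions, windows of 250 bases before a RefSeq start (GRCr8) are given. They are those of Ube2a and Ube2b and of Usp11 and Usp10, which are described further on. Each is read 5′ to 3′ on the strand of its gene, and capitals mark CCAAT boxes (CCAAT, or ATTGG on the other strand) and GC boxes (GGGCGG, or CCGCCC). The windows are chrX:120979834-120980083 on the plus strand for Ube2a, chr10:36763944-36764193 on the minus strand for Ube2b, chrX:4043037-4043286 on the minus strand for Usp11 and chr19:64881547-64881796 on the plus strand for Usp10. Other transcripts of a gene can start elsewhere. The Ube2b and Usp10 windows lie within the coordinates given for their genes, and the Ube2a window runs over the start of its gene. The Usp11 window lies before its gene.
Ube2a: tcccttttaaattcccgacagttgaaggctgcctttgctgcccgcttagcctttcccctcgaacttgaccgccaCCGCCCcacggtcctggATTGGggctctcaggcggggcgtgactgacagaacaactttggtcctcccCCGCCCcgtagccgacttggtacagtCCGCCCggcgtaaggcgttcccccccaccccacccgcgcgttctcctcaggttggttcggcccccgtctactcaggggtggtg
Ube2b: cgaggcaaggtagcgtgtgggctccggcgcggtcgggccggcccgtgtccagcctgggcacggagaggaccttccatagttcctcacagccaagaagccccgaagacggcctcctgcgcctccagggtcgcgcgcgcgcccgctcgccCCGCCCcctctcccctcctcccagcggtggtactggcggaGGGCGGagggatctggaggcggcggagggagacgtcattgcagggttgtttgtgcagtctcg
Usp11: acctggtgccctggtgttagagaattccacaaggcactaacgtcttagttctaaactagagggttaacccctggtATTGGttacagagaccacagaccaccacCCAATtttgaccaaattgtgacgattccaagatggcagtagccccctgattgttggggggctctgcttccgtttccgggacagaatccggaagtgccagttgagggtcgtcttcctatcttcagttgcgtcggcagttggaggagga
Usp10: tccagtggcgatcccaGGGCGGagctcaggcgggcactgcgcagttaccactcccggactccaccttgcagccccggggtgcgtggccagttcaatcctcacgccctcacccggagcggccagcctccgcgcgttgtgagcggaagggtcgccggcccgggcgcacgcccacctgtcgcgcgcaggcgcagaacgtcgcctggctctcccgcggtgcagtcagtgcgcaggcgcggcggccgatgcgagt

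The Ube2a window held 1 CCAAT box and 3 GC boxes, the Ube2b window 2 GC boxes, the Usp11 window 2 CCAAT boxes and no GC box, and the Usp10 window 1 GC box. RefSeq windows were at hand for 51 of the 61 genes. Among the others are Ube2c, Ube2r2, Ube2v2, Usp7, Usp9x, Usp12, Usp18, Usp42 and Usp49. A CCAAT box stood in 9 of 19 windows of genes higher in round spermatids and in 3 of 20 windows of genes lower there, beside 34.3% of all 27457 windows of that length. A GC box stood in 9 of 19 and in 18 of 20, beside 32.4% of all windows. The core of the cyclic AMP response element (TGACG, or CGTCA on the other strand) was in 8 of 19 and 7 of 20, beside 19.0%, and the TATA box (TATAAA, or TTTATA on the other strand) in 1 of 19 and 3 of 20, beside 13.1%. The median G and C content was 59.2% for the higher genes, 66.8% for the lower genes and 52.0% over all windows, and GC boxes follow base composition. These are counts of letters in a fixed window and not binding sites.

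Of the Ube2 genes around the RAD6 type and Ube2n, 3 of 5 were higher and 2 lower. Ube2n, which builds ubiquitin chains used as signals in DNA damage and immune responses, was 1.65-fold higher (1.34 to 2.04; adjusted p = 0.000123). Its partners without enzyme activity of their own went opposite ways, Ube2v2 being higher by 0.57 and Ube2v1 lower by 1.14 on the log2 scale. For Ube2v1, 3 of 4 other probes were lower as well and 1 did not pass. For Ube2v2 a second probe was lower, at -2.63, so its direction rests on the probe used. Among the Ube2d and Ube2e genes 3 of 4 were lower and none higher. Ube2e3 had -0.39, -0.28 and 0.23 as its lowest, median and highest level in round spermatids, against 1.63, 2.69, 2.58, 1.64 and 2.20 in pachytene spermatocytes. The 2 sets of arrays did not overlap, and Ube2e3 was 4.96-fold lower (3.86 to 6.39; adjusted p = 7.11e-11). Ube2e2 was 3.46-fold lower and Ube2d3 1.63-fold lower, while Ube2d1 was dim and did not pass, at -0.10. Ube2d2b, a Ube2d2-like gene outside that list, was 1.75-fold higher.

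The E2 enzymes of the anaphase-promoting complex, which drives the exit from division, divided: Ube2c, which starts the chains, was 3.16-fold higher (2.62 to 3.81) and Ube2s, which extends them, 1.59-fold lower (1.27 to 1.99) in round spermatids. At the endoplasmic reticulum, Ube2j1, a membrane-bound E2 enzyme that takes part in the removal of misfolded proteins, had 4.22, 4.42 and 4.54 in round spermatids, against 2.58, 2.56, 2.10, 2.13 and 2.24 in pachytene spermatocytes. Each round spermatid array was above each pachytene array, by 4.26-fold on average (3.62 to 5.01; adjusted p = 6.99e-13). Its relative Ube2j2 did not pass, at 0.10 (95% interval -0.18 to 0.38). Ube2g1 was 3.42-fold lower and Ube2g2, another E2 enzyme of that pathway, did not pass at 0.27. Of the E2 enzymes for ubiquitin-like proteins, Ube2f (for NEDD8) was 1.53-fold higher, Ube2z 1.76-fold lower, and neither Ube2m (for NEDD8) nor Ube2l6 (for ISG15) passed, at -0.15 and 0.25. Ube2r2, which works with the cullin ligases, was 2.58-fold lower, but its other probe did not pass at 0.14. Ube2k was lower by 0.88 on the log2 scale, with 4 of 6 round spermatid arrays well above background. Its difference was -0.48 and did not pass on slides 1 and 2 alone, and it was 0.13 within slide 1. Ube2q1 did not pass at -0.09.

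Among the proteases that act on histones, 6 of 9 were higher and 3 lower in round spermatids. Usp51, which removes ubiquitin from histone H2A and is on chromosome X (21750630 to 21757163), had 1.61, 1.96 and 2.21 in round spermatids, against -0.68, 0.19, -0.75, -1.47 and -0.64 in pachytene spermatocytes. One pachytene array, of rat 16, stood above the other four, yet below all 6 round spermatid arrays, and without it the log2 difference was 2.85. Usp51 was 6.20-fold higher (4.71 to 8.18; adjusted p = 3.96e-11), the largest difference of either family, and a second probe gave 2.51. Usp12, which works with WD-repeat partners, had 4.48, 4.98 and 5.06 against 2.92, 2.96, 2.25, 1.75 and 2.25, and was 5.52-fold higher (4.14 to 7.35). Its paralog Usp46 was 2.76-fold lower (1.93 to 3.95), but near background, on 4 of 6 round spermatid arrays well above it, and its groups overlapped. The mean over its probes gave a log2 difference of 0.23, but takes in a probe too dim to be tested between these cell types. Usp7, which also acts on p53 and its ligase Mdm2, was 3.53-fold higher (2.95 to 4.23), Usp49 2.50-fold higher, Usp3 1.44-fold higher and Usp16, which acts on histone H2A, 1.28-fold higher. The Usp16 call ended after quantile normalization, at 0.07, and on slides 1 and 2 alone, at 0.29, and its difference was 0.06 within slide 1. The Usp3 call ended with slide as a block. Usp21 and Usp36 were lower by 0.70 and 0.79 on the log2 scale.

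The proteases linked to DNA damage and p53 were evenly divided, 3 of 6 higher and 3 lower. Usp11, which takes part in repair by recombination, is on chromosome X (4026865 to 4043036) and had -0.16, 0.23 and 0.39 in round spermatids, against -2.22, -1.75, -2.42, -2.89 and -2.20 in pachytene spermatocytes. The groups did not overlap, and Usp11 was 5.58-fold higher (4.44 to 7.00; adjusted p = 6.47e-12). Usp10, which stabilises p53 in the cytoplasm, is on chromosome 19 (64881255 to 64923522) and had -1.80, -1.57 and -1.13 in round spermatids, against 0.38, 0.56, 0.66, 0.40 and 0.43 in pachytene spermatocytes. All 6 round spermatid arrays were below all 5 pachytene arrays, and Usp10 was 3.92-fold lower (3.31 to 4.65; adjusted p = 2.60e-12). Usp47 was 2.74-fold lower and Usp28 1.32-fold lower. The Usp28 call ended with slide as a block, at -0.31 on the log2 scale, and on slides 1 and 2 alone, at -0.37. Within slide 1 the Usp28 difference was -0.001.

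**Figure D2:**
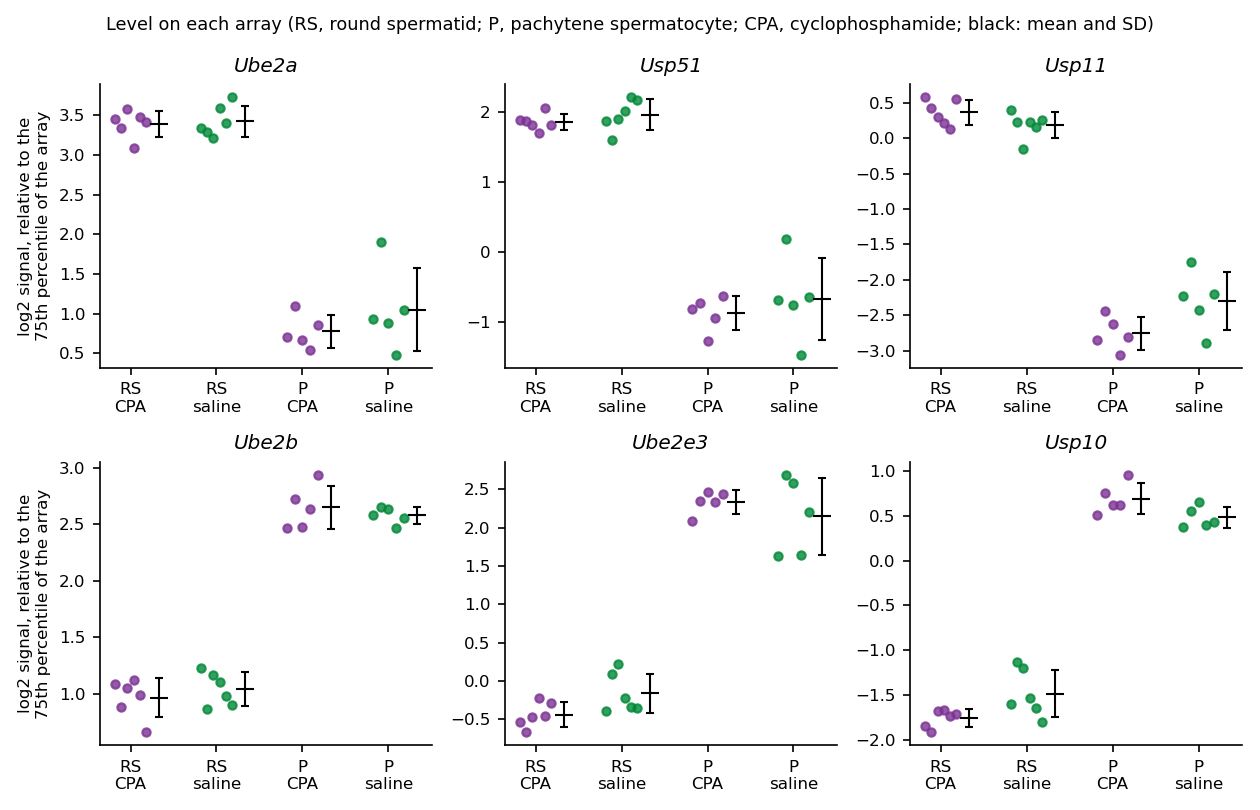
Each point is the log2 level of 1 array relative to its own 75th percentile, in the order round spermatids of cyclophosphamide and saline rats, then pachytene spermatocytes (P) of cyclophosphamide and saline rats; black marks are the mean and SD. Ube2a, Usp51 and Usp11 are higher and Ube2b, Ube2e3 and Usp10 lower on every round spermatid (RS) array than on any pachytene array, and the treatments overlap within each cell type.

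Usp4 and Usp15, paralogs that act on splicing factors, differed in opposite directions. Usp15 was 2.59-fold higher (2.08 to 3.24) and Usp4 2.65-fold lower (2.08 to 3.38), and Usp39, a splicing factor of the same fold, was 1.28-fold higher. The proteasome-bound Usp14 was 1.96-fold higher (1.64 to 2.35). Of the proteases at membranes, Usp20 was 2.27-fold higher and the mitochondrial Usp30 1.32-fold higher, while Usp8 and Usp19 did not pass, at -0.12 and -0.28. Usp8, which takes part in endosomal sorting and the formation of the acrosome, gave 0.22 with slide as a block, so it has no settled direction.

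Of 7 proteases known for roles in male fertility in mice or for testis expression, 3 were higher, 1 was lower and 2 did not pass in saline rats, and Usp29 was not measured above background. Usp26, a testis protease on chromosome X, had -3.52, -2.98 and -2.33 in round spermatids, against -5.01, -5.12, -6.45, -5.0 and -4.09 in pachytene spermatocytes. It was 4.73-fold higher (2.92 to 7.65), with 4 of 5 pachytene arrays well above background. Usp2 was 1.32-fold higher. Usp9x had -4.41, -4.20 and -3.45 in round spermatids, against -2.15, -1.91, -1.71, -2.78 and -1.93 in pachytene spermatocytes, and was 3.85-fold lower (2.88 to 5.14). The groups of Usp9x did not overlap, and the X-linked gene thus moved against the other 3 X-linked proteases. Usp42 did not pass, at -0.26.

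Other large differences belonged to genes outside these lists. Usp25 had 1.1, 1.32 and 1.54 in round spermatids, against -1.08, -0.76, -1.05, -1.69 and -1.52 in pachytene spermatocytes, and was 5.75-fold higher (4.43 to 7.48). A second Usp25 probe gave a smaller difference of 0.58 that passed. Usp5, which takes apart free ubiquitin chains, was 3.13-fold lower (2.52 to 3.90), Usp54 2.46-fold lower and Usp40 2.39-fold lower. Usp18, which removes ISG15, was lower by 0.90 on the log2 scale and well above background on 3 of 6 round spermatid arrays. A second Usp18 probe did not pass, at -0.53, and the Usp18 call ended on slides 1 and 2 alone, at -0.76. Usp48 and Usp6nl were higher by 0.65 and 0.55, but a second probe of each was lower, at -1.44 and -2.16. Usp31 did not pass, at 0.18. Across 13 genes with other probes that could be tested, 10 of 16 such probes passed in the direction of the probe used. Of the rest, 3 passed in the opposite direction and 3 pairs had a probe that did not pass. A further 4 other probes were too dim to be tested, those of Usp31 and Usp46 among them.

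Of the 6 genes tested on chromosome X, 4 were higher (Ube2a, Usp11, Usp26 and Usp51) and 2 were lower in round spermatids (Usp9x and Ube2q2l). Over all named X-linked genes tested, 194 of 334 were higher and 81 lower, with a median of 0.88. The autosomal genes of the 2 families had 21 of 52 higher and 21 lower, beside 4134 higher and 4323 lower of 10879 autosomal genes, which had a median of -0.02. The X chromosome is known to be silenced in pachytene spermatocytes. Ube2q2l was not well above background on any round spermatid array of saline rats and was above it on 4 of 5 pachytene arrays, so only a bound can be given: it was at least 1.43-fold lower in round spermatids (adjusted p = 0.000405; mean levels -6.90 and -5.69).

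The other parts of the pathway were counted in the same comparison, with its 38.5% higher and 36.9% lower over all genes as the measure. Of 8 E1 enzymes 1 was higher and 6 were lower, the lower ones including Uba3 (7.25-fold) and Nae1 (4.70-fold), which together activate NEDD8, and Uba6 (5.43-fold), a second E1 enzyme for ubiquitin. The exception, Uba1, the main E1 enzyme for ubiquitin, was 1.82-fold higher. Of 9 E3 ligases that work with the RAD6 type or Ube2n, 8 were lower, 0 were higher and Rnf40 did not pass at 0.02. Shprh was 10.1-fold, Rnf20 5.47-fold, Rnf8 4.37-fold and Rad18 2.26-fold lower. Ube2a was thus higher while Rad18 and Rnf20, 2 ligases that work with it, were lower. Of the 12 proteases with OTU or Josephin domains, 10 were higher and 0 lower, with a median of 1.72; Otub2 was 7.22-fold and Otud4 5.98-fold higher. The JAMM metalloproteases had 1 of 9 higher (Stambpl1, 6.27-fold) and 5 lower, among them the proteasome subunit Psmd14 (3.0-fold). Of 3 UCH proteases 2 were higher and Uchl3 was lower.

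**Figure D3:**
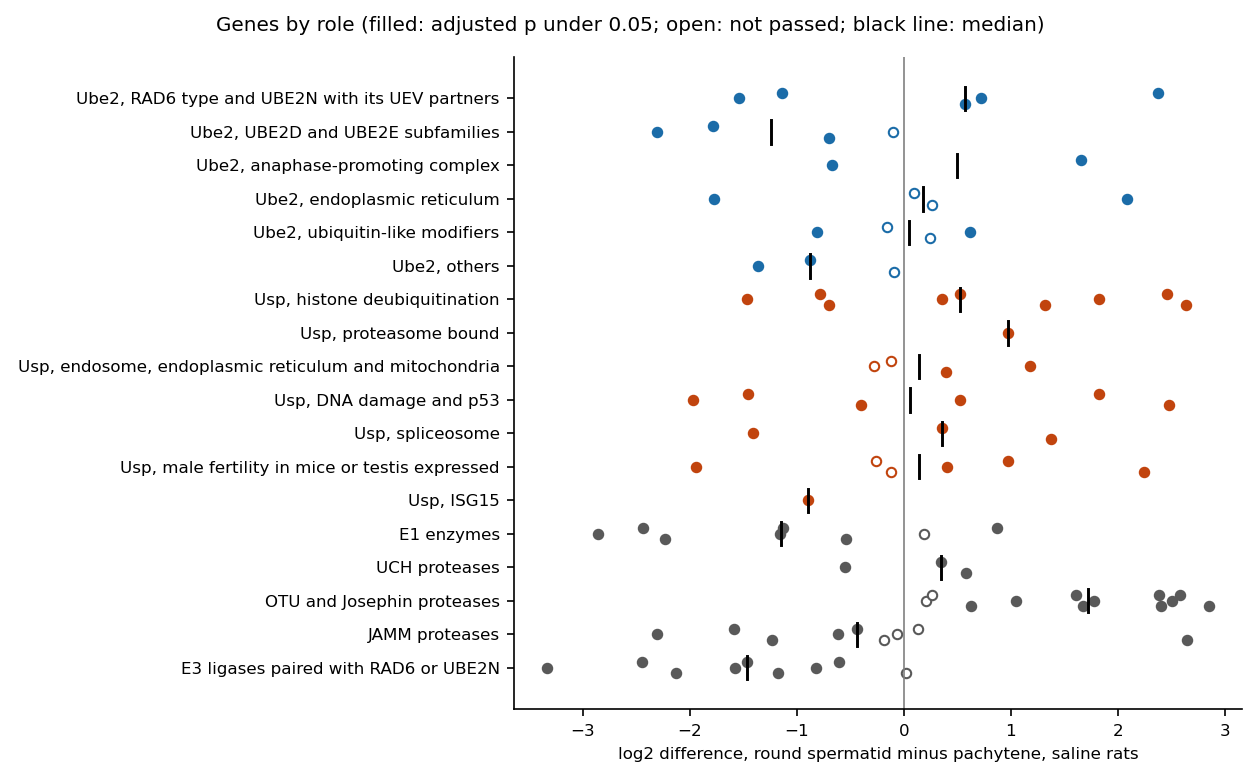
Log2 differences between round spermatids and pachytene spermatocytes of saline rats by role, with Ube2 genes in blue, Usp genes in orange and other parts of the pathway in grey; filled points passed at an adjusted p of 0.05 and black lines are medians. The E1 enzymes and the E3 partners lie mostly below 0, the OTU and Josephin proteases above it, and the roles of the Ube2 and Usp genes mostly on both sides.

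The cell types were compared again in cyclophosphamide rats, which share no array with the saline comparison. Of 57 genes tested 51 passed, 26 higher and 25 lower, where 79.3% of all genes passed, 39.0% higher and 40.4% lower. The Usp family had 17 of 33 higher and 15 lower with a median of 0.38, and the Ube2 family 9 of 24 higher and 10 lower with a median of 0.00, beside -0.02 over all genes. The Usp median was -0.04 when all probes of a gene were averaged. All 46 genes that passed in both sets of rats had the same direction in both, and this was not counted over all genes. Those that passed in cyclophosphamide rats alone were Ube2g2, Usp8, Usp19, Usp31 and Usp42, and the one that passed in saline rats alone was Usp16, at 0.19 in cyclophosphamide rats and 0.36 in saline rats. Ube2d1, Ube2j2, Ube2l6, Ube2m and Ube2q1 passed in neither. The difference was larger in size in cyclophosphamide rats for 40 of 57 genes, a count that was not made over all genes. The median size over these genes was 0.99 on the log2 scale in cyclophosphamide rats and 0.89 in saline rats. Over all genes tested it was 1.05 in cyclophosphamide rats and 0.90 in saline rats, so the larger size was not particular to these families. Usp11 was 8.68-fold (6.92 to 10.9) higher in cyclophosphamide rats and 5.58-fold higher in saline rats, and Usp25 8.49-fold (6.54 to 11.0) and 5.75-fold. Whether such gaps between the treatments pass a test is given by the difference of the treatment effects further on, and none did.

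**Figure D4:**
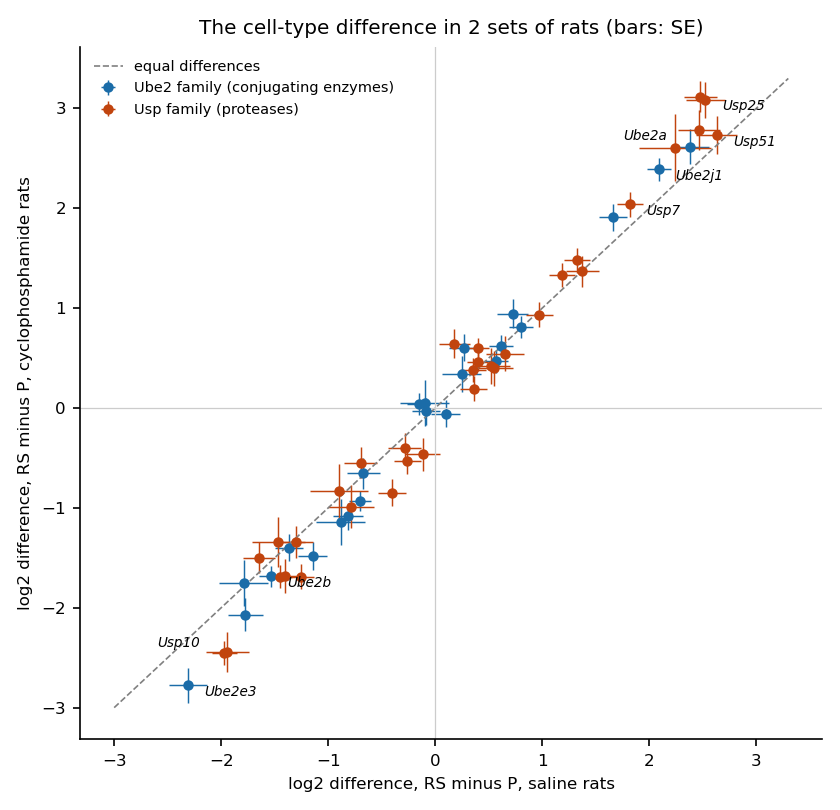
Log2 differences between round spermatids (RS) and pachytene spermatocytes (P) of 56 genes, in saline rats (x axis) and in cyclophosphamide rats (y axis), with standard errors. The points run along the line of equal differences, from Ube2e3 at -2.31 in saline and -2.78 in cyclophosphamide rats to Usp51 at 2.63 in saline and 2.73 in cyclophosphamide rats.

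The study's own question was whether chronic cyclophosphamide changed these cells. No gene of either family passed between treatments: 0 of 57 in pachytene spermatocytes and 0 of 55 in round spermatids, where 0.0% of all genes passed in each (limma; smallest adjusted p over all genes 0.678 in pachytene spermatocytes and 0.981 in round spermatids). At an unadjusted p of 0.05 there were 5 of these genes in pachytene spermatocytes and 4 in round spermatids, 8.77% and 7.27%, beside 1388 genes (7.36%) and 640 genes (3.33%) over the whole array. The 95% interval stayed within 2-fold for 56 of 57 genes in pachytene spermatocytes and for 55 of 55 in round spermatids. The exception was Usp26 in pachytene spermatocytes. Over all genes tested it stayed within 2-fold for 93.4% in pachytene spermatocytes and 95.7% in round spermatids. Within 1.5-fold it stayed for 43 and 51 of the genes of the families, and no share over all genes was counted there. The median difference was 0.04 over the genes tested in pachytene spermatocytes and -0.02 in round spermatids, beside 0.04 and -0.01 over all genes.

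In pachytene spermatocytes the genes of smallest unadjusted p were lower after cyclophosphamide. Usp11 had -2.85, -2.43, -2.63, -3.06 and -2.80 in cyclophosphamide rats, against -2.22, -1.75, -2.42, -2.89 and -2.20 in saline rats. The groups overlapped, and the difference was -0.46 (95% interval -0.80 to -0.12; adjusted p = 0.678, limma). Ube2c had 0.46, 0.33, 0.34, 0.66 and 0.12 in cyclophosphamide rats, against 0.78, 0.92, 0.35, 1.03 and 0.43 in saline rats, a difference of -0.32 (-0.60 to -0.04) with the groups overlapping. Usp25 differed by -0.42 (-0.81 to -0.02), with the groups overlapping. The genes of smallest p with a positive difference were Usp10 at 0.21, Usp42 at 0.22 and Usp4 at 0.27, and the interval of each included 0. Usp11, Ube2c and Usp25, the genes with the negative differences, are higher in round spermatids than in pachytene spermatocytes of saline rats, and the 13 round spermatid markers were lower at the median after cyclophosphamide as well: the mean level of the markers was 1.79 to 2.82 (median 2.12) in pachytene arrays of cyclophosphamide rats, against 1.94 to 3.19 (median 2.62) in those of saline rats. The groups overlapped, and the part of round spermatid RNA in these differences was not tested.

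In round spermatids the genes of smallest unadjusted p were Usp10 at -0.27 (95% interval -0.51 to -0.04), Usp40 at -0.26 (-0.51 to -0.02), Usp28 at -0.28 (-0.54 to -0.01) and Ube2g2 at 0.28 (0.01 to 0.54), each with an adjusted p of 1.0 (limma). Usp10 had -1.92, -1.72 and -1.66 as lowest, median and highest in cyclophosphamide rats, against -1.80, -1.57 and -1.13 in saline rats, with the groups overlapping. Usp49 and Usp46 followed on the positive side, at 0.20 and 0.34. The round spermatid markers had a mean level of 4.71 to 5.31 on these arrays of cyclophosphamide rats, against 4.69 to 5.18 in saline rats.

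The treatment effect in round spermatids minus that in pachytene spermatocytes was tested as well, and 0 of 58 genes passed, with 0.0% of all genes passing. The genes of smallest unadjusted p were Usp10 at -0.48 (95% interval -0.82 to -0.13), Usp40 at -0.43 and Usp28 at -0.44 on the negative side, and Usp11 at 0.64 (0.17 to 1.1), Usp31 at 0.47 and Usp25 at 0.56 on the positive side, with adjusted p of 0.630 (limma). In all, 6 of 58 genes (10.3%) had an unadjusted p under 0.05, beside 1544 (7.69%) over the whole array. By family these were 6 of 33 Usp genes (18.2%) and 0 of 25 Ube2 genes, a split that was not tested. The interval of this difference stayed within 2-fold for 54 of the 58 genes, beside 75.6% of all genes tested. The Usp31 difference turned to -0.19 when all its probes were averaged, and the Usp28 difference to 0.09 within slide 2. The average takes in a Usp31 probe too dim to be tested between the cell types of saline rats.

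**Figure D5:**
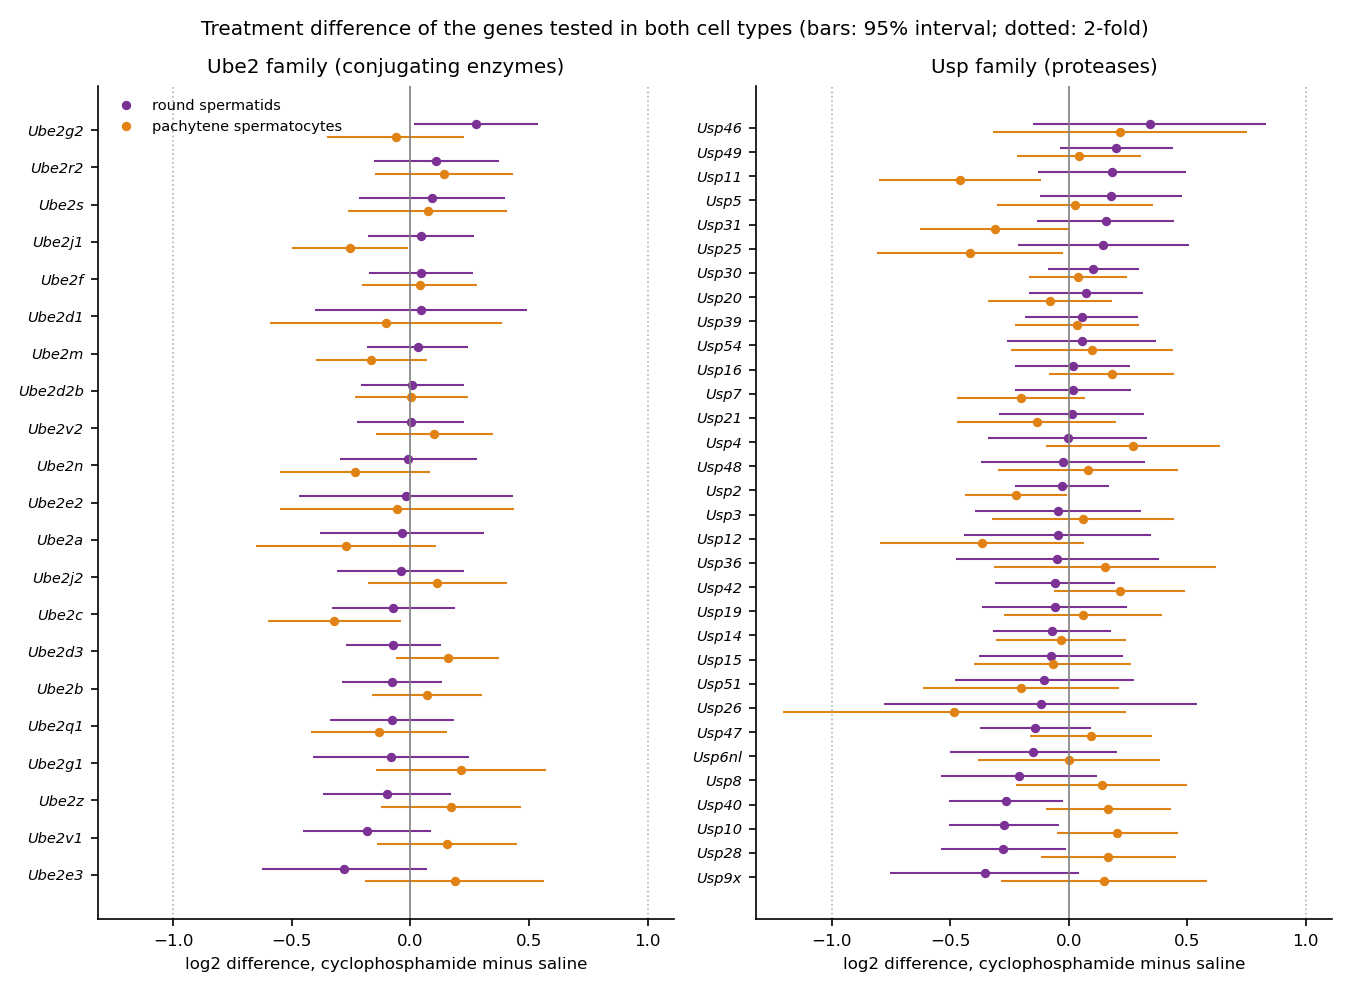
Log2 differences, cyclophosphamide minus saline, in round spermatids (purple) and pachytene spermatocytes (orange), with 95% intervals, for 53 genes tested in both cell types, the Ube2 family at left and the Usp family at right. Dotted lines mark 2-fold; the interval of Usp26 in pachytene spermatocytes is the one that crosses them, and no gene passed at an adjusted p of 0.05.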

How the data were processed

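Per the labels' protocols, total RNA from each cell fraction was labelled with Cy3 and hybridised to Agilent one-colour arrays. The processed signal used from the deposited scanner files is an intensity per spot that Feature Extraction had background-subtracted but not scaled between arrays. The submitters' processing notes name version 11.5.1.1 and the file headers 10.7.3.1. A table deposited by the authors gives log2 numbers for 30507 probes. Its columns were compared with log2 scanner signals of the brighter probes centred on each probe's median within a cell type, and matched their own array at r of 0.959 to 0.994 and any other at 0.574 or less, with slopes of 0.904 to 1.006 and column medians of -0.0098 to 0.0070. Its scale is thus log2, its direction that of the signal and its centring by probe within a cell type, while the authors' exact steps stay unknown. It was used as an alternative for the effects of treatment.

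Control spots and spots marked as outliers were left out and spots of a probe were averaged. Of 30367 probes, 37 had no usable spot on some array. Levels are log2 processed signals less the 75th percentile of the array. RefSeq accessions named 17978 probes (59.2%) with 15144 symbols of assembly GRCr8, and 12352 probes stayed unnamed. The 61 genes described had 81 probes, and 17 of them had several. The array files' genome build is not given in the sources used here, and coordinates are those of GRCr8. A gene was tested where its brightest probe was well above background (over 0.5 of its spots) in some compared group with no more than 1 array missing it. Differences were tested with limma 3.58.1 (statmod 1.5.0, R 4.3.3) on 4 group means over all 22 arrays, with Benjamini-Hochberg adjustment over all genes tested at 0.05. Tables were made in Python 3.11.15 with pandas 2.3.3 and numpy 2.4.6, and drawings with matplotlib 3.10.9. The fit was tested on simulated data. Where no array of a group was well above background, a fold is given as at least the other group's mean over, per array, the higher of the probe's own signal and the lowest signal well above background.

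The genes, role lists and families were chosen with earlier results of these data known. Named with values were the 6 largest rises and falls per family, X-linked genes, 16 further genes, paralog pairs, and the 3 smallest p per direction in each treatment comparison. A few other genes of the role lists are named with their values. The alternatives were normexp background correction, quantile and median scaling, other filters, the mean of all probes of a gene, slide as a block or alone, only the groups compared, a replicate block, the authors' value table and leaving out each array. The files used give no mean signal, so normexp used the median signals, with an offset of 50. Arrays of a group were taken as different rats; the cyclophosphamide pachytene arrays 16-2011 and 16-2012 share a rat number and were kept apart. The number of arrays limits the precision. Some items are not reported here.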

Additional observations from a re-analysis of the deposited data

Results flagged for a closer look

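Of 140 sets of values of 1 gene in 1 group, 4 held an array that stood apart from its group by Dixon's criterion, and chance gives about 1 in 20. Ube2s in round spermatids of saline rats was at 2.80 on the array of rat 28, below the nearest array at 3.45. Usp25 in round spermatids of cyclophosphamide rats was at 2.07 on the array of rat 27, above the nearest at 1.38. Usp40 in pachytene spermatocytes of cyclophosphamide rats was at 0.37 on the array of rat 15, below the nearest at 0.60. Usp7 in pachytene spermatocytes of saline rats was at 2.27 on the array of rat 16, above the nearest at 1.68. All 4 values were well above background. Genes outside that choice were not looked at, such as the dim Ube2ql1. In round spermatids of saline rats it was at -4.79 on the array of rat 29 and at -8.65 to -8.03 on the others.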

How the results depend on the processing

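Between the cell types of saline rats, the number of genes passing stayed within 1.5 times of 48 under each alternative but 1, the fit within slide 1, where 30 passed. Of the 48, 47 kept their direction within slide 1 (the exception was Ube2k, at 0.13) and 48 within slide 2, where 39 passed. With slide as a block 46 passed (all but Usp28 and Usp3), and on slides 1 and 2 alone 44 (all but Ube2k, Usp16, Usp18 and Usp28). Each of these slides holds 1 pachytene array per treatment. For a fit within a slide, the difference is that of the slide, but the spread comes from all arrays that share group and slide with another. These are the round spermatid arrays of slides 1 and 2, a cyclophosphamide pachytene pair on slide 3 and a saline pachytene pair on slide 4. The lone pachytene array is assumed to vary like them. Within slide 1 the higher Ube2 genes numbered 5, the higher Usp genes 10 and the lower Usp genes 7 in saline rats. The higher Usp genes numbered 11 within slide 2 in saline rats and 11 within slides 1 and 2 in cyclophosphamide rats. Without 1 array at a time, 48 to 50 genes passed in saline rats and 48 to 51 in cyclophosphamide rats, and 0 passed between treatments.

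The family medians moved more. In saline rats the Ube2 median was -0.29 after quantile normalization. The Usp median was 0.15 with the mean of all probes, 0.070 after quantile normalization, 0.29 on slides 1 and 2, 0.19 within slide 1, 0.28 within slide 2 and 0.28 to 0.35 without 1 array. In cyclophosphamide rats the Ube2 median was -0.045 with the mean of all probes and with no filter, -0.043 after median scaling, -0.12 with normexp, -0.12 after quantile normalization, -0.052 on slides 1 and 2, -0.12 within slide 1 and -0.036 to 0.047 without 1 array. The Usp median was -0.036 with the mean of all probes, 0.22 with normexp, 0.23 on slides 1 and 2, 0.30 within slide 1, 0.27 within slide 2 and 0.27 to 0.38 without 1 array. The cause of these shifts was not tested.

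Single genes changed sign in a few settings. Usp46 gave 0.23 with the mean of all probes, which takes in a probe too dim to be tested. Usp8 in saline rats gave 0.14 on slides 1 and 2, 0.22 with slide as a block, 0.17 within slide 1, 0.10 within slide 2 and 0.028 without the pachytene array of rat 26 (-0.20 to 0.028 without 1 array). The difference of treatment effects was 0.093 for Usp28 within slide 2 and -0.19 for Usp31 with the mean of all probes. For Usp31 that mean also takes in a probe too dim to be tested between the cell types of saline rats. Usp42 in saline rats passed with normexp, after quantile normalization, and without the pachytene array of rat 16 (-0.35) or the round spermatid array of rat 17 or 25 (-0.31 and -0.30).

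With the rat number within a treatment as a replicate block, 48 genes passed in saline rats and 51 in cyclophosphamide rats, as without it, and 0 between treatments. Whether the same number means the same rat cannot be told from these values. Deviations of arrays with the same number correlated at -0.09 to 0.38 between cell types, and the estimated correlation within a number was 0.022. That estimate also takes in the pachytene arrays 16-2011 and 16-2012 of cyclophosphamide rats, which correlated at -0.32. Genes near background, Ube2q2l, Usp46 and Usp18 among them, have the least signal to show a change.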
